A study of Mus musculus with 8 samples.

Results

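The comparison described here set thymic epithelial cells (TEC) of the embryonic mouse thymus at E13.5, a stage given in days of embryonic development, against cortical TEC (cTEC) at E15.5. TEC form the epithelial framework of the organ. They attract blood-borne progenitors, support them as they become T cells, and show them self-peptides on major histocompatibility complex (MHC) molecules. Both groups were wild type (WT) mice of the strain labelled C57 B6 (CD45.2), both came from thymus, and neither carried a transgene or received a treatment. Live cells of the E13.5 TEC library were sorted as EpCAM+ and CD45-, which takes in TEC of every lineage, because the surface marks that part cortical from medullary cells do not yet part them at that age. The E15.5 cTEC library held cells of the same gate that also carried Ly51 and did not bind the lectin UEA-1. The embryonic thymi of both ages were dissociated in the same way with trypsin and EDTA, without an enrichment step, and the libraries were captured in the same data set. There was 1 library a side, so nothing below was tested: every difference is between these libraries, and intervals cover counting error only. Age and gate differ together between the libraries and cannot be told apart for any gene. This holds for cortical genes, which the E15.5 gate favours, as for medullary, progenitor or other non-cortical ones. How many animals were pooled is not given in the sources used here.

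Cells with at most 5% mitochondrial unique molecular identifiers (UMIs, 1 per captured transcript) and at most 5000 detected genes were kept. This left 1981 of 2002 barcodes at E13.5 and 3571 of 3705 at E15.5, together 5552 of the 28334 barcodes of the series and 2 of its 8 samples. The E13.5 cells held a median of 7035 UMIs and 2615 genes and the E15.5 cells a median of 7382 UMIs and 2636 genes, so depth per cell was close. The summed libraries held 15128307 and 27640041 UMIs, and 18 barcode sequences occurred in both. Mitochondrial genes took 1.43% of UMIs at E13.5 and 2.05% at E15.5.

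The third pharyngeal pouch gives rise to both the thymus and the parathyroid glands. Within the thymic primordium the transcription factor Foxn1 starts the TEC programme, and epithelial progenitors that first take on cortical features later give the cortical and medullary lineages. Cortical cells are known for the protease subunit Psmb11 and the serine protease Prss16, which shape the peptides that select T cells, and for the chemokines and Notch ligand that draw in and instruct the progenitors. The period between these ages is one of rapid growth of the organ.

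The labels were first set against marker genes. Both libraries were epithelial: Krt8, a keratin of simple epithelia, stood at 1725 CPM at E13.5 and 4618 CPM at E15.5, and Epcam, the sorted surface protein, at 843 CPM at E13.5 and 388 CPM at E15.5. Markers of white blood cells were near 0, the 15 thymocyte markers summing to 10.31 CPM at E13.5 and 14.76 CPM at E15.5 and the 12 myeloid markers to 0.529 and 0.217 CPM, with no cell of either library holding at least 3 of the thymocyte, myeloid or erythroid markers, which allows a share of up to 0.186% at E13.5 and 0.103% at E15.5 by the exact interval. Ptprc, the gene of CD45, gave 1 UMI at E13.5 and 0 at E15.5. The E13.5 library did hold other endoderm. At least 3 parathyroid markers were detected in 206 of 1981 cells (10.4%, 95% exact binomial interval 9.09 to 11.83) against 7 of 3571 cells (0.196%) at E15.5, and at least 3 thyroid markers in 52 cells against 0. The 8 parathyroid markers summed to 3170 CPM at E13.5 and 392.1 CPM at E15.5 and the 8 thyroid markers to 76.88 and 4.342 CPM. Endothelial, mesenchymal and neural crest markers summed to 26.51, 30.34 and 30.21 CPM at E13.5 and to 20.04, 10.71 and 69.39 CPM at E15.5, the last at E15.5 mostly Ednrb, which stood at 14.3 CPM at E13.5 and 63.1 CPM at E15.5, and no more than 2 cells of either library held 3 markers of any of them.

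Pth, the parathyroid hormone, stood at 2063 CPM at E13.5 and 257 CPM at E15.5 (log2 ratio -2.96), and the secretory granule protein Chga at 949.9 CPM at E13.5 and 50.8 CPM at E15.5 (-3.98). A Pth UMI was found in 49.82% of E13.5 cells, far more than held parathyroid markers, and in 3.86% of E15.5 cells. Nkx2-1, a thyroid transcription factor, had 338 UMIs at E13.5 and 0 at E15.5, at least 206-fold lower against a floor of 3 counts in the E15.5 library. Hhex, which acts early in the same organ, had 659 UMIs against 0 and was at least 401-fold lower, and Pax8 had 136 against 0 and was at least 83-fold lower. Leaving out every cell with at least 3 markers of another cell type (261 at E13.5 and 10 at E15.5) kept 598 of the 653 genes past 2-fold that are counted below.

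Levels are given as CPM, the UMIs of a gene summed over cells and scaled to a common library total. The log2 ratio is that of E15.5 over E13.5 after adding 10 CPM to both, which understates differences of low genes, and a gene is called past 2-fold when it reaches 1 in either direction. Of 8752 genes with at least 10 CPM in either library, 353 (4.03%) were past 2-fold higher at E15.5 and 300 (3.43%) past 2-fold lower, and the median over all these genes was -0.06. Scaling by the median ratio of genes in place of total UMIs moved this median to 0.06 and gave 443 higher and 231 lower, so the balance of the directions depends on the scaling. The scatter of levels shows most genes between the dashed lines, with 12 of 14 cortical and 10 of 16 MHC class II genes above them.

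**Figure D1:**
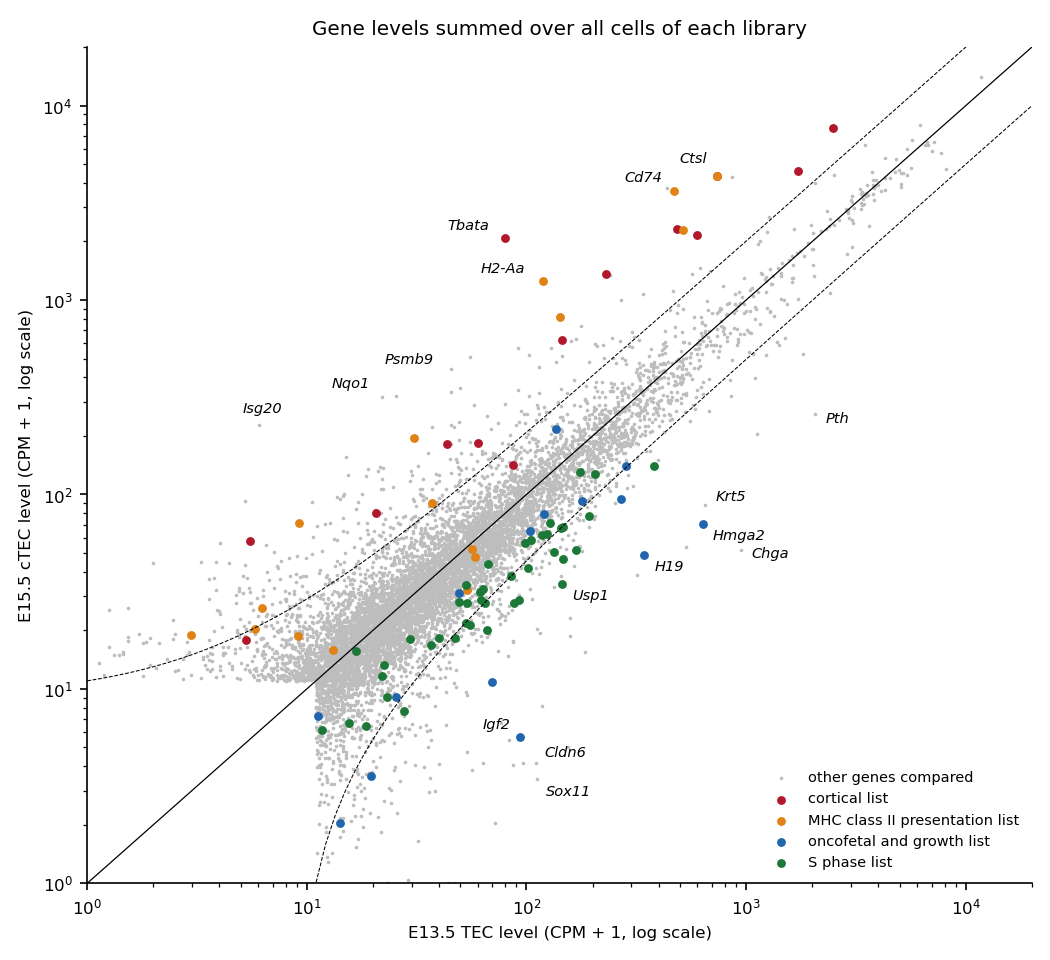
Level of each compared gene (CPM + 1, log axes) in the E13.5 TEC library (x) and the E15.5 cTEC library (y), with 4 gene lists in colour. Each point is 1 gene, with 1 row kept per symbol. The solid line marks equal levels and the dashed lines the 2-fold limits on the CPM + 10 scale. Cortical and MHC class II genes such as Tbata and H2-Aa lie above the lines, and Hmga2, Sox11, Cldn6, Pth and Krt5 lie below.

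Because TEC of every lineage were sorted at E13.5, the comparison was repeated in cells with at least 1 UMI of Psmb11 or Prss16. These were 1542 of 1981 cells at E13.5 (77.84%, 75.94 to 79.65) and 3547 of 3571 at E15.5 (99.33%, 99 to 99.57). With each cell thinned to 2000 UMIs the shares were 56.07% and 97.1%, leaving out 3 and 15 shallower cells, and with at least 5 UMIs required they were 43.51% and 95.97%. The median cell carried 4 UMIs of the genes together at E13.5 and 26 at E15.5.

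UMIs of these genes also occurred in cells that should lack them. The 121 E13.5 cells richest in hormone transcripts, with at least 50 UMIs of Pth and Chga together (a limit chosen after the values were seen), were used as that background, and 22.31% of them held a UMI of either gene at a median depth of 4288 UMIs. After thinning this was 9.09%, and 1.65% held at least 5. The 1-UMI choice therefore admits some cells of other kinds at E13.5, and values with at least 5 UMIs required are given beside many of the results. Over all genes, 258 of 8614 compared at 5 UMIs were past 2-fold higher (3%) and 194 lower (2.25%), the background for counts given there.

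Among cells with Psmb11 or Prss16, 8676 genes were compared, of which 313 (3.61%) were past 2-fold higher and 250 (2.88%) past 2-fold lower at E15.5. Of the 353 higher genes of the whole libraries 306 were also past 2-fold here, and of the 300 lower genes 243 were. Under median-ratio scaling the counts were 392 higher and 179 lower. The choice uses Psmb11 and Prss16 themselves, so their values in these cells are a description of the choice.

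Most genes of the cortical programme were higher at E15.5. All 14 genes of the cortical list were compared, 12 were past 2-fold higher and none lower, with a median log2 ratio of 1.84 beside -0.06 for all genes. In cells with Psmb11 or Prss16 the count was again 12 of 14 and the median 1.62, but both of these genes are in the list and chose the cells. Without them 10 of 12 were past 2-fold higher in all cells (median 1.73), 10 in cells with Psmb11 or Prss16 (1.5), 8 where at least 5 UMIs were required (1.07) and 7 in cells of low proliferation score, described below (1.19). Ctsl, the cathepsin that processes MHC class II peptides in the cortex, stood at 734 CPM (95% Poisson interval 721 to 748) at E13.5 and 4359 CPM (4334 to 4383) at E15.5 (log2 ratio 2.55, and 2.35 in the cells with Psmb11 or Prss16). Psmb11 stood at 229.8 CPM at E13.5 and 1357 CPM at E15.5 (2.51) and Prss16 at 483 CPM at E13.5 and 2328 CPM at E15.5 (2.25). Ly75, an endocytic receptor of cTEC, stood at 59.1 CPM at E13.5 and 184 CPM at E15.5 (1.49), and Cd83, which stabilises MHC class II at the cell surface, at 42.6 CPM at E13.5 and 179.9 CPM at E15.5 (1.85). Ackr4, a scavenger receptor for CCL25 and CCL21, stood at 4.5 CPM at E13.5 and 56.8 CPM at E15.5 (2.20).

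Tbata had the largest log2 ratio of the genes named by the ranking rule in all cells with 10 CPM added, while with 1 CPM added it was 4.70, behind 5.22 for Isg20. Its product is a thymus and testis protein linked to TEC growth, and the gene lies at chr10:61171954-61188841 on the plus strand of GRCm38. It stood at 79.1 CPM (95% Poisson interval 74.7 to 83.7) at E13.5 and 2079 CPM (2062 to 2096) at E15.5, a log2 ratio of 4.55 in all cells, 4.32 in cells with Psmb11 or Prss16 and 3.84 where at least 5 UMIs of these were required. A UMI of Tbata was found in 9.61% of E13.5 cells and 72.69% of E15.5 cells at 2000 UMIs each.

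Foxn1, the master regulator of the lineage, had the lowest log2 ratio of the 14 cortical genes. It stood at 86.1 CPM (95% Poisson interval 81.5 to 90.9) at E13.5 and 141 CPM (137 to 146) at E15.5, a log2 ratio of 0.65 in all cells and 0.48 in cells with Psmb11 or Prss16, both under the fold, and it was detected in 15.07% and 24.35% of thinned cells. Its 5-base core GACGC, searched on both strands from 250 bases before to 50 after each RefSeq gene start, was present for 4 of the 12 cortical genes with a promoter in the table (33.3%), beside 29.6% of all genes and 55.3% of the genes compared.

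The signals that cTEC send to thymocyte progenitors were unequal. Of 11 thymocyte-supporting ligands compared, 4 were past 2-fold higher and 1 lower, with a median of 0.45. Cxcl12, a chemokine for early thymocytes, stood at 144 CPM at E13.5 and 623 CPM at E15.5 (2.04), and Ccl25, the chemokine that draws progenitors into the thymus, at 596 CPM at E13.5 and 2155 CPM at E15.5 (1.84). Dll4, the Notch ligand that commits progenitors to the T lineage, stood at 19.6 CPM at E13.5 and 79.5 CPM at E15.5 (1.60) and was detected in 4.1% and 14.79% of thinned cells. Flt3l was the remaining higher ligand, at 1.85 CPM at E13.5 and 16.4 CPM at E15.5 (1.16). The E17.5 cTEC matrix was counted with another gene list and, by its header, another Cell Ranger version. There Flt3l stood at 0.0111 CPM beside 17.6 CPM in newborn cTEC, and the part of the gene list in its counts was not tested. The cytokines Il7 and Kitl, which keep early thymocytes alive and dividing, were under the fold: Il7 stood at 256 CPM at E13.5 and 353 CPM at E15.5 (0.45) and Kitl at 69.5 CPM at E13.5 and 79.2 CPM at E15.5 (0.17). Ccl21a, a chemokine of medullary cells, was the 1 lower ligand.

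**Figure D2:**
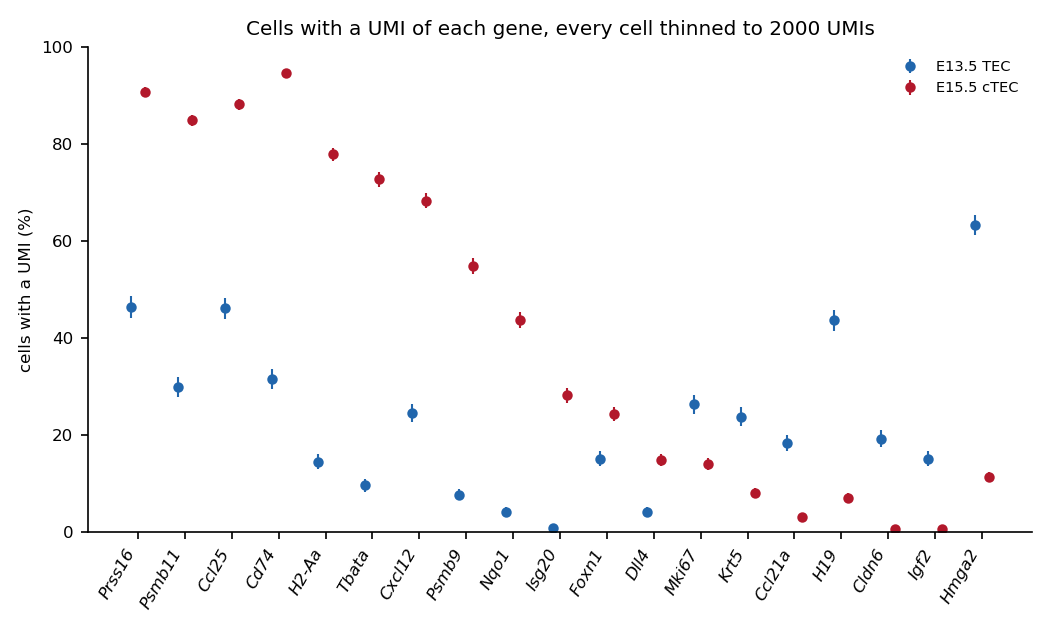
Percent of cells with at least 1 UMI of each gene (y axis, 0 to 100) in E13.5 TEC (blue) and E15.5 cTEC (red), every cell thinned to 2000 UMIs; bars are 95% exact binomial intervals of counting error. Cd74, for example, was found in 31.6% and 94.74% of cells, and Hmga2 in 63.3% and 11.33%.

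Antigen presentation genes formed the next large group at E15.5. Of 16 MHC class II presentation genes compared, 10 were past 2-fold higher and none lower (median 1.21). H2-Aa, a chain of the class II molecule, stood at 118 CPM (95% Poisson interval 113 to 124) at E13.5 and 1253 CPM (1240 to 1266) at E15.5 (3.30), with H2-Ab1 at 514 CPM at E13.5 and 2287 CPM at E15.5 (2.13) and H2-Eb1 at 140.4 CPM at E13.5 and 813 CPM at E15.5 (2.45). Cd74, the invariant chain that guides class II molecules to the endosome, stood at 468 CPM at E13.5 and 3651 CPM at E15.5 (2.94). H2-DMa, which helps load peptide, stood at 29.8 CPM at E13.5 and 194 CPM at E15.5 (2.36). These ratios stayed large in cells with Psmb11 or Prss16, at 3.09 for H2-Aa and 2.73 for Cd74. In the hormone-rich E13.5 cells, Cd74 and H2-Aa were each found in 0.826% of thinned cells, so the 14.41% of E13.5 cells with H2-Aa and the 31.6% with Cd74 are above that background. Ciita, the coactivator that switches on class II genes, stood at 4.83 CPM at E13.5 and 19.4 CPM at E15.5 (0.99), just under the fold.

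The promoters of the class II genes H2-Aa and H2-Eb1 are shown because class II genes are known to need an NF-Y box, CCAAT on either strand, next to the elements read by the Rfx factors. The sequences are RefSeq's, build GRCm38.p6, 5′ to 3′ on the gene's strand, in lower case with each CCAAT (or its reverse complement) in capitals. H2-Aa is at chr17:34287774-34288073 (minus strand) and H2-Eb1 at chr17:34305617-34305916 (plus strand).
H2-Aa: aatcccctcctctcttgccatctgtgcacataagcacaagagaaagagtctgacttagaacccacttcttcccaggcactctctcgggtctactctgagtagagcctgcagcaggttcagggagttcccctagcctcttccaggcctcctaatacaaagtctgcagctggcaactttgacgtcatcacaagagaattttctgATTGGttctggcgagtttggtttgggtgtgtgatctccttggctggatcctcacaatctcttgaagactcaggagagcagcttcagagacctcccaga
H2-Eb1: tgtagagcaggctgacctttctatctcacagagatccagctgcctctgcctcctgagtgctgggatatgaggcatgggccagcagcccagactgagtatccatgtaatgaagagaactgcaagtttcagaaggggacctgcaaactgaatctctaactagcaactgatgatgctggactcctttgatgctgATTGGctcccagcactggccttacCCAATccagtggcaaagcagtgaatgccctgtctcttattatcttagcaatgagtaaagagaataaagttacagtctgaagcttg
The box was present for 10 of the 13 class II genes with a promoter in the table (76.9%), beside 41.1% of all genes, 43.1% of the genes compared, 41.7% of the higher genes and 44.5% of the lower genes. It was common in other lists too, at 68.8% of class I, 70% of S phase and 76.1% of G2M phase genes.

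MHC class I presentation followed. Of 16 class I genes compared, 9 were past 2-fold higher and none lower (median 1.29). The heavy chains H2-K1 and H2-D1 stood at 48.1 CPM at E13.5 and 235 CPM at E15.5 (2.08) and at 44.5 CPM at E13.5 and 228 CPM at E15.5 (2.12). B2m, their shared light chain, stood at 129 CPM at E13.5 and 562 CPM at E15.5 (2.04), and Tap1, a subunit of the peptide transporter, at 12.4 CPM at E13.5 and 58.2 CPM at E15.5 (1.61). As class I heavy chain genes are near-identical copies of each other, reads may be split among them and their single values are uncertain. The general chaperones of the pathway did not share this: Calr stood at 716 CPM at E13.5 and 586 CPM at E15.5 (-0.29) and Canx at 294 CPM at E13.5 and 176 CPM at E15.5 (-0.70).

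The proteasome subunits divided by kind. Psmb9, an immunoproteasome subunit (chr17:34181987-34187764, minus strand, GRCm38), stood at 44.5 CPM (95% Poisson interval 41.2 to 48) at E13.5 and 443 CPM (435 to 451) at E15.5 (3.06), and Psmb10, which occupies another catalytic position, at 239 CPM at E13.5 and 1342 CPM at E15.5 (2.44). The standard catalytic subunits were level: Psmb5 stood at 427 CPM at E13.5 and 469 CPM at E15.5 (0.13), Psmb6 at 548 CPM at E13.5 and 603 CPM at E15.5 (0.14) and Psmb7 at 253 CPM at E13.5 and 269.7 CPM at E15.5 (0.09). Psmb8, the immunoproteasome partner of the position that Psmb11 takes in cTEC, was under 10 CPM in both libraries, at 2.78 CPM at E13.5 and 4.41 CPM at E15.5.

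Of 20 interferon-stimulated genes compared, 13 were past 2-fold higher and none lower (median 1.06). Of the same 20 genes 10 were past 2-fold higher in cells with Psmb11 or Prss16 (median 0.98), 11 in those of low proliferation score (1.07) and 5 in those of high score (0.57), classes described below. Isg15, a ubiquitin-like protein, stood at 14.4 CPM at E13.5 and 125 CPM at E15.5 (2.46), and Ifi27 at 9.52 CPM at E13.5 and 90.0 CPM at E15.5 (2.36). Bst2, which tethers virus particles to the cell, stood at 6.94 CPM at E13.5 and 30.9 CPM at E15.5 (1.27). Irf1, a transcription factor of the interferon response, stood at 36.6 CPM at E13.5 and 89.8 CPM at E15.5 (1.10, and 0.92 in cells with Psmb11 or Prss16). Isg20, an interferon-induced exonuclease outside the list and second in the ranking, stood at 5.09 CPM at E13.5 and 227 CPM at E15.5 (3.97). In the newborn (NB) cTEC library, dissociated in another way, Isg15 stood at 901 CPM, Bst2 at 350.5 CPM and the class II gene H2-Aa at 3896 CPM. Newborn levels of the other interferon-stimulated genes are not given here.

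Promoters with the interferon-stimulated response element (ISRE, searched as GAAA, any 2 bases and GAAA on either strand) are shown from this group. Isg15 is at chr4:156200769-156201068 (minus strand) and B2m at chr2:122147437-122147736 (plus strand), both GRCm38.p6 from RefSeq, with the element in capitals.
Isg15: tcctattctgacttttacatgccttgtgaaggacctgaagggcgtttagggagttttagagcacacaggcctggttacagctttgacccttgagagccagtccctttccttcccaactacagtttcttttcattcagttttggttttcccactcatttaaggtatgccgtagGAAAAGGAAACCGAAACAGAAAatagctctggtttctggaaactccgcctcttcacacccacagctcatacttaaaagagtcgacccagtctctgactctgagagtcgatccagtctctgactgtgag
B2m: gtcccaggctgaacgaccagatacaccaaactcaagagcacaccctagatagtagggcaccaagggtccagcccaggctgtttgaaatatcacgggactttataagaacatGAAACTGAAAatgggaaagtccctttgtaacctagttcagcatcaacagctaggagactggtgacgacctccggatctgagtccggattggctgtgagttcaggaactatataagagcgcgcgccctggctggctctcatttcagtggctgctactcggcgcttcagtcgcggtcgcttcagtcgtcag
The element was present for 15 of 22 interferon-stimulated genes with a promoter in the table (68.2%) and 4 of 16 class I genes (25%), beside 3.99% of all genes. Among all genes past 2-fold it was present for 7.61% of the higher and 5% of the lower, beside 3.62% of the genes compared.

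Other genes that led the ranking came from several functions. Nqo1, a quinone reductase, stood at 20.9 CPM (95% Poisson interval 18.6 to 23.3) at E13.5 and 318 CPM (311 to 324) at E15.5 (3.41) and was found in 4.15% and 43.76% of thinned cells. Cstb, an inhibitor of cysteine cathepsins, stood at 434 CPM at E13.5 and 3747 CPM at E15.5 (3.08), and Gch1, the first enzyme of tetrahydrobiopterin synthesis, at 4.23 CPM at E13.5 and 91.7 CPM at E15.5 (2.84). Oma1, a mitochondrial protease, stood at 54.3 CPM at E13.5 and 508 CPM at E15.5 (3.01). Gatsl3, a regulator of amino acid sensing, stood at 24.5 CPM at E13.5 and 322 CPM at E15.5 (3.27). The rest of the 15 were Nkain4, Opcml, Ppp1r27 and Fam213b, with log2 ratios of 2.78, 2.66, 2.63 and 2.52. Each of these 9 genes was past 2-fold in cells with Psmb11 or Prss16 as well, in both proliferation classes described below.

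**Figure D3:**
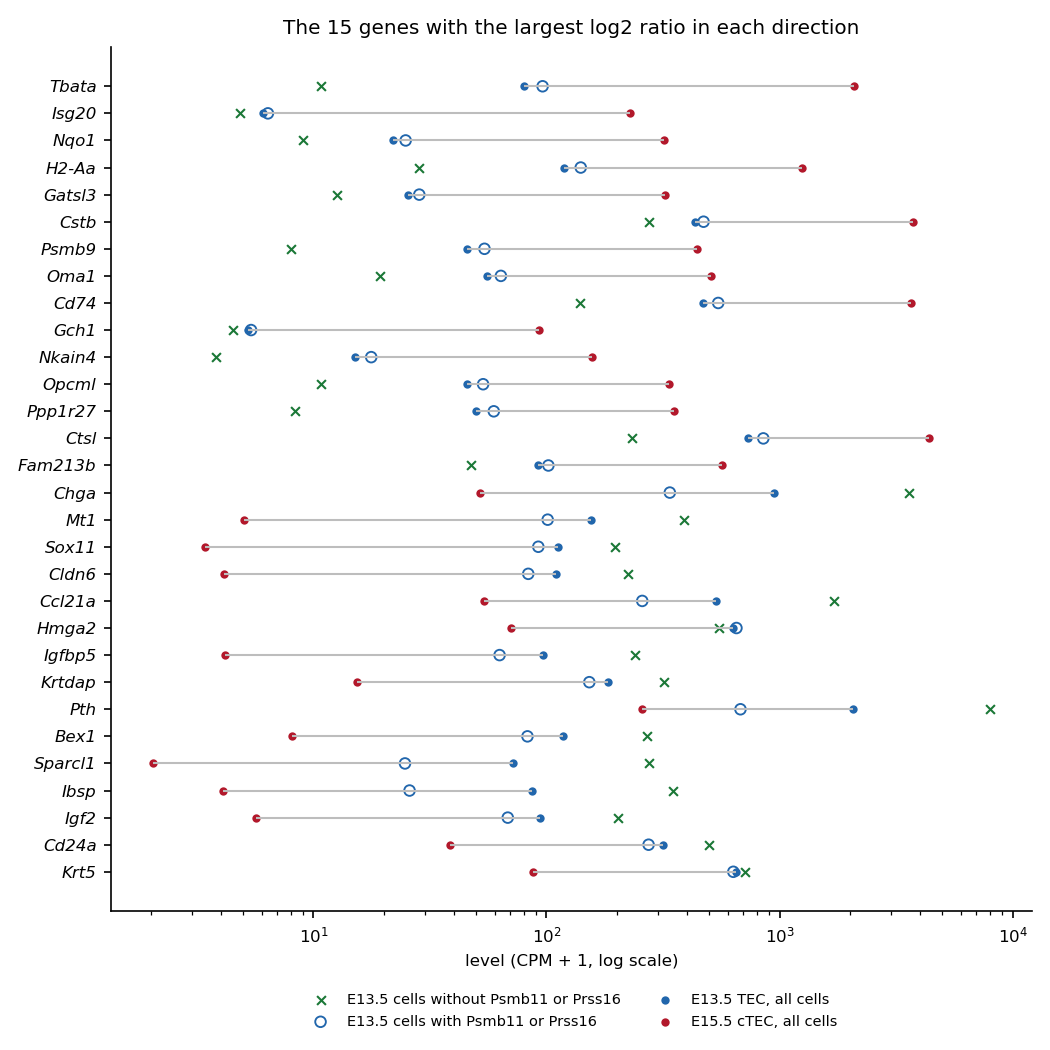
The 15 genes with the largest log2 ratio in each direction, with the level (CPM + 1, log axis) in all E13.5 cells (filled blue), E13.5 cells with Psmb11 or Prss16 (open blue), E13.5 cells without either (green cross) and all E15.5 cells (red); the grey line joins the filled points. Crosses far right of the open circles, as for Pth, Chga, Ibsp, Sparcl1 and Ccl21a, mark genes whose E13.5 level was highest in cells without cortical transcripts.

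The lower genes named by the ranking differed in how far their E13.5 transcripts lay in cells without Psmb11 or Prss16. Ccl21a stood at 531 CPM (95% Poisson interval 519.5 to 543) at E13.5 and 52.8 CPM (50.1 to 55.6) at E15.5 (-3.11), but at 1711 CPM in the 439 E13.5 cells without either gene, and its log2 ratio was -1.23 where at least 5 UMIs were required. Ibsp, an extracellular matrix protein known from bone, stood at 85.8 CPM at E13.5 and 3.08 CPM at E15.5 (-2.87), at 348 CPM in the cells without either gene, and at a ratio of -0.34 with at least 5 UMIs. Sparcl1, a matrix glycoprotein, behaved alike, from -2.88 in all cells to -0.44. In those cells Ibsp and Sparcl1 were therefore under the fold, while Ccl21a was still past it.

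Hmga2 was past 2-fold lower in each choice of cells. It encodes a chromatin protein of embryonic and proliferating cells and lies at chr10:120361275-120476469 on the minus strand of GRCm38. It stood at 633 CPM (95% Poisson interval 620.3 to 646) at E13.5 and 69.7 CPM (66.6 to 72.9) at E15.5 (-3.01), at 549 CPM in E13.5 cells without Psmb11 or Prss16, and its ratio was -3.03 with at least 5 UMIs, -2.84 in low score cells and -2.65 in high score cells. Hmga2 was found in 63.3% of thinned E13.5 cells and 11.33% of thinned E15.5 cells, beside 28.1% of the hormone-rich E13.5 cells. Sox11, a transcription factor of embryonic progenitors, stood at 111 CPM at E13.5 and 2.42 CPM at E15.5 (-3.28, and -2.99 with at least 5 UMIs). Mt1, a metal-binding protein, stood at 154 CPM at E13.5 and 4.02 CPM at E15.5 (-3.55), with 387 CPM in the cells without Psmb11 or Prss16 and a ratio of -2.16 with at least 5 UMIs. Igfbp5, a binding protein of insulin-like growth factors, stood at 95.2 CPM at E13.5 and 3.18 CPM at E15.5 (-3.00), and Cd24a, a surface glycoprotein of immature cells, at 316 CPM at E13.5 and 37.4 CPM at E15.5 (-2.78). Krtdap, a gene of keratinocyte differentiation, and Bex1 complete the 15, with log2 ratios of -2.98 and -2.89.

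The oncofetal and growth list, to which Hmga2 belongs, had 7 of 15 compared genes past 2-fold lower and none higher, with a median of -0.97 in all cells and -0.81 in cells with Psmb11 or Prss16. Igf2, a fetal growth factor, stood at 92.7 CPM at E13.5 and 4.67 CPM at E15.5 (-2.81), and H19, the imprinted RNA beside it, at 343 CPM at E13.5 and 47.9 CPM at E15.5 (-2.61). Igf2bp1, which binds the Igf2 transcript, stood at 68.5 CPM at E13.5 and 9.84 CPM at E15.5 (-1.98). Cdkn1c, an imprinted inhibitor of cyclin-dependent kinases, stood at 268 CPM at E13.5 and 93.7 CPM at E15.5 (-1.42). The related binding proteins Igf2bp2 and Igf2bp3 were under the fold, at -0.60 and -0.55. Lin28b was under 10 CPM in both libraries, at 3.04 CPM at E13.5 and 0.145 CPM at E15.5.

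Medullary and progenitor genes were lower in part. Of 16 compared, 7 were past 2-fold lower and 2 higher (median -0.71), and in cells with Psmb11 or Prss16 the median was -0.57. Krt5, the keratin of basal and medullary epithelium, stood at 647 CPM (95% Poisson interval 635 to 660.3) at E13.5 and 86.9 CPM (83.5 to 90.5) at E15.5 (-2.76) and at -2.37 with at least 5 UMIs. The tight junction proteins Cldn3 and Cldn4, which mark medullary progenitors, had log2 ratios of -1.99 and -1.42. The 2 higher genes were Trp63, a transcription factor that maintains epithelial progenitors, at 93.6 CPM at E13.5 and 266 CPM at E15.5 (1.41), and Relb, a transcription factor of the non-canonical NF-kB pathway, at 40.4 CPM at E13.5 and 98.1 CPM at E15.5 (1.10). With at least 5 UMIs of Psmb11 and Prss16 the list median turned to 0.66 because its low members then dropped under 10 CPM. The same 16 genes had a median of -0.41 in those cells, with 1 past 2-fold higher and 4 lower. As the E15.5 gate left out UEA-1 binding cells, age and gate cannot be told apart for these genes.

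Junction genes were lower in part too. Of 21 adhesion and junction genes compared, 5 were past 2-fold lower and none higher (median -0.22). Cldn6, an embryonic claudin, stood at 109 CPM at E13.5 and 3.15 CPM at E15.5 (-3.18) and was found in 19.21% and 0.534% of thinned cells. Epcam, on which both libraries were sorted, is another of the 5. The desmosome gene Dsp stood at 282 CPM at E13.5 and 468 CPM at E15.5 (0.71) and the cadherin Cdh1 at 62.1 CPM at E13.5 and 57.9 CPM at E15.5 (-0.09), both under the fold. With at least 5 UMIs of Psmb11 and Prss16, 2 of the 21 were past 2-fold lower, Cldn6 (-2.55) and Cldn7 (-1.5).

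The pouch transcription factors that set up the organ were close to level. Of 12 compared, none was past 2-fold higher and 1 lower (median -0.29). Pax1 stood at 221 CPM at E13.5 and 336 CPM at E15.5 (0.58) and Pax9 at 156 CPM at E13.5 and 179 CPM at E15.5 (0.18). The lower 1 was Gata3, needed for pouch and parathyroid development, at 46.7 CPM at E13.5 and 11.6 CPM at E15.5 (-1.39). Its level was 147 CPM in E13.5 cells without Psmb11 or Prss16, and its ratio in cells with them was -0.71, under the fold, but -1.16 in those of low proliferation score.

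Proliferation was compared through a score per cell, the mean log level of 94 S phase and G2M phase genes less that of control genes of similar level. A score above 0 was called high. By this score 1414 of 1981 E13.5 cells (71.38%, 69.33 to 73.36) and 992 of 3571 E15.5 cells (27.78%, 26.31 to 29.28) were high, and thinning to 2000 UMIs gave 71.69% and 28.85%. The score is a continuous range, with 141 and 152 cells within 0.05 of the limit. Among E13.5 cells the share was 73.41% in those with Psmb11 or Prss16 and 64.24% in those without. The genes of the score took 1.27% of all UMIs at E13.5 and 0.736% at E15.5. Mki67, a proliferation marker, was found in 20.66% of the thinned hormone-rich cells beside 26.29% of all thinned E13.5 cells and 13.98% of E15.5 cells.

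Of the 2 phases, S phase held more genes past the fold. In all cells 18 of 42 S phase genes were past 2-fold lower at E15.5 and none higher (median -0.84), against 3 of 52 G2M phase genes (median -0.52). Usp1, a deubiquitinase of DNA repair, stood at 144 CPM at E13.5 and 33.8 CPM at E15.5 (-1.81), Hells, a chromatin remodeller, at 167 CPM at E13.5 and 50.9 CPM at E15.5 (-1.54), and Rrm2, a subunit of the enzyme that makes deoxynucleotides, at 146 CPM at E13.5 and 45.3 CPM at E15.5 (-1.49). The 3 G2M phase genes past the fold were Cbx5, a heterochromatin protein (-1.39), and the nuclear envelope proteins Lbr (-1.11) and Tmpo (-1.02). Of the others, Cdk1, the kinase that drives mitosis, stood at 218 CPM at E13.5 and 172 CPM at E15.5 (-0.33). Cdc20, an activator of mitotic protein destruction, stood at 207 CPM at E13.5 and 186 CPM at E15.5 (-0.14). As rounded, this was the highest ratio of the list, shared with Gtse1.

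To compare cells closer in score, cells with Psmb11 or Prss16 were divided at a score of 0. The low class held 410 cells at E13.5 and 2563 at E15.5, and the high class 1132 and 984. Score and depth still differed within the classes. The genes of the score took 0.321% of UMIs at E13.5 and 0.201% at E15.5 in the low class, and 1.52% and 1.78% in the high class. Median UMIs per cell were 5721 at E13.5 and 7011 at E15.5 in the low class, and 8179.5 and 9169.5 in the high class. S and G2M phase genes are part of this choice, so their values within a class are a description. In the low class 8636 genes were compared, 264 (3.06%) past 2-fold higher and 269 (3.11%) lower, with median-ratio scaling 342 and 205. In the high class 8565 genes were compared, 184 (2.15%) higher and 129 (1.51%) lower. Of the 353 genes higher in all cells, 239 were also past 2-fold in the low class, 175 in the high class and 151 in both, and of the 300 lower genes, 192, 124 and 107. Of the 21 S or G2M phase genes among the 300, 6 were also lower past 2-fold in the low class and 2 in the high class.

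The genes that led the low class were largely those of all cells. They included Chga and Pth, the first of the lower genes there at -5.03 and -4.84, as the 8 parathyroid markers summed to 1826 CPM at E13.5 and 127.3 CPM at E15.5 in this class, beside 911.4 and 331.3 CPM in the high class. The part of parathyroid cells or their free RNA in the other ratios of the class was not tested. The 10 with the largest log2 ratio there included 8 already named among the 15 of all cells, and the others were Ramp3, a receptor accessory protein, at 12.7 CPM at E13.5 and 96 CPM at E15.5 in all cells and 2.68 in the low class, and Gsdmd, which forms pores in pyroptosis, at 3.04 CPM at E13.5 and 55.5 CPM at E15.5 and 2.64. Of the 10 lower genes, 8 were among the 15 of all cells, and the others were Hspb1 (-3.19) and H19 (-2.96). Krt8 and Foxn1 came closer to level in low score cells, at 0.51 and 0.07, as did Ccl25 at 0.87, under the fold.

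In the high class the list medians lay on opposite sides of 0. The S phase median there was -0.27 and the G2M phase median 0.4, with 46 of the 52 G2M genes and 9 of the 42 S phase genes above 0. Cdk1 stood at 274 CPM at E13.5 and 481 CPM at E15.5 in high score cells (0.79), and Cdc20 at 267 CPM at E13.5 and 526 CPM at E15.5 (0.95). Usp1 stayed lower, at 167 CPM at E13.5 and 71.7 CPM at E15.5 (-1.11), as did Hells at 193 CPM at E13.5 and 104 CPM at E15.5 (-0.83, under the fold). Cdc20 had the highest ratio of the G2M phase list in this class and Usp1 the lowest of the S phase list. Because genes of both lists chose the class, these values support nothing further.

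**Figure D4:**
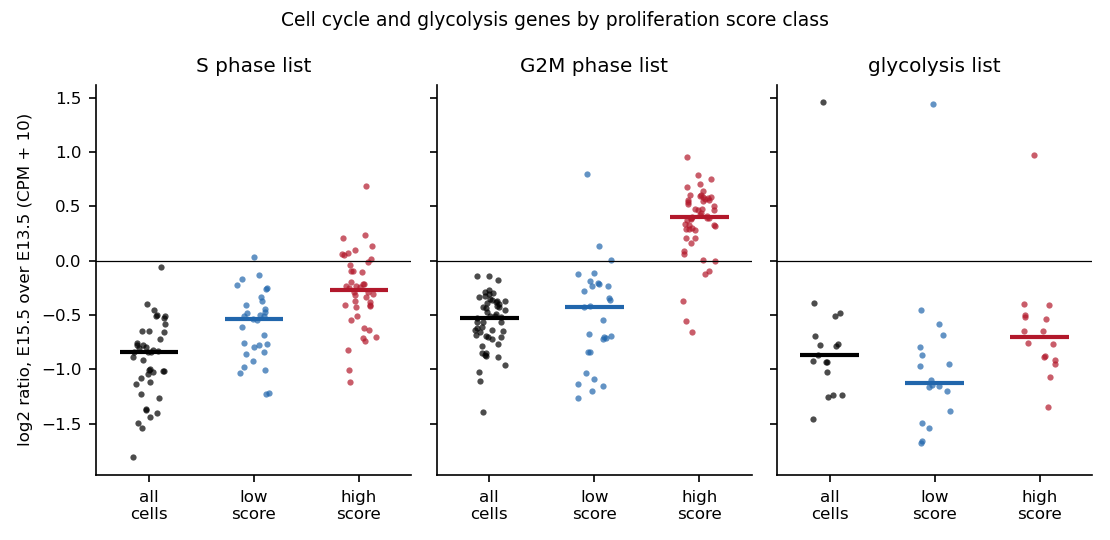
Log2 ratio of E15.5 over E13.5 (CPM + 10) for each compared gene (1 point) of the S phase, G2M phase and glycolysis lists in all cells, and in low and high proliferation score cells with Psmb11 or Prss16; thick bars are medians. The G2M phase median moves from -0.52 in all cells to 0.4 in high score cells, and glycolysis stays below 0 in each.

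A promoter from each phase is shown. Hells (chr19:38930740-38931039, plus strand) carries an E2F site, TTTCCCGC or TTTGGCGC on either strand, and Ccnb2, a mitotic cyclin (chr9:70421505-70421804, minus strand), the cell cycle homology region (CHR), TTTGAA on either strand. Both are RefSeq sequences of GRCm38.p6 with the motif in capitals.
Hells: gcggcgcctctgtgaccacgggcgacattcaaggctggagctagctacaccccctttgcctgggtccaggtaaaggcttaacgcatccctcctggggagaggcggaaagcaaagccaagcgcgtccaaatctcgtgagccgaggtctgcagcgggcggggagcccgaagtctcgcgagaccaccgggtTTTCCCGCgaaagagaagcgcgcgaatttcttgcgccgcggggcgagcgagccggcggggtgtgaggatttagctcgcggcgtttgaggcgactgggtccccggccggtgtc
Ccnb2: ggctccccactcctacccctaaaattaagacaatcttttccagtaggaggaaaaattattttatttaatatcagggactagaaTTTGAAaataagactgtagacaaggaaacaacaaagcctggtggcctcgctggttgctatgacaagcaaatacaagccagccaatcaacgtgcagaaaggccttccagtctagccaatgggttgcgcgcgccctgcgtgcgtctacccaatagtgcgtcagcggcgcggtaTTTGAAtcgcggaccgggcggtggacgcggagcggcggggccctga
An E2F site was present for 10 of 30 S phase genes with a promoter in the table (33.3%), beside 1.8% of all genes, 3.82% of the genes compared, 9.09% of the lower and 1.45% of the higher genes. The CHR was present for 33 of 46 G2M phase genes (71.7%), beside 20.2% of all genes, 14.1% of the genes compared, 13.6% of the lower and 13% of the higher genes. Ccnb2 itself stood at 141 CPM at E13.5 and 107 CPM at E15.5 (-0.36), and at 0.61 in high score cells.

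Regulators of entry into the cycle were lower in part. Of 19 G1 cyclins and kinase inhibitors compared, 6 were past 2-fold lower and none higher (median -0.71). The D-type cyclins Ccnd1 and Ccnd2 stood at 35.7 CPM at E13.5 and 4.49 CPM at E15.5 (-1.66) and at 676 CPM at E13.5 and 267 CPM at E15.5 (-1.31). The inhibitor Cdkn1a was lower too, at 65.3 CPM at E13.5 and 17.4 CPM at E15.5 (-1.46), so members that drive and that restrain the cycle were both among the 6. With at least 5 UMIs of Psmb11 and Prss16 required, 4 were past 2-fold lower, in low score cells 3 of 16 compared (median -0.43) and in high score cells 5 of 20 (-0.33). Of 18 chromatin enzymes 4 were past 2-fold lower (median -0.53), among them Ezh2, the Polycomb methyltransferase, at 175 CPM at E13.5 and 53 CPM at E15.5 (-1.55), and Dnmt1, the maintenance DNA methyltransferase, at 144 CPM at E13.5 and 57.9 CPM at E15.5 (-1.18). In low score cells 4 of the 18 were past 2-fold lower, with Ezh2 at -1.08, and in high score cells none, with Ezh2 at -0.94.

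Ribosome genes gave 2 answers. Transcripts of ribosomal proteins made up 25.43% of the E13.5 UMIs and 24.38% of the E15.5 UMIs, and none of the 79 compared was past 2-fold in either direction (median -0.04). Ribosome biogenesis genes, which make and assemble ribosomal RNA, had 6 of 55 past 2-fold lower and none higher (median -0.47). In low score cells 1 of 55 was past 2-fold lower (median -0.33), beside 3.11% of all genes there, and in high score cells 4 of 56 (-0.39). Ncl, a nucleolar protein, stood at 1722 CPM at E13.5 and 1009 CPM at E15.5 (-0.77), Npm1, another, at 2029 CPM at E13.5 and 1328 CPM at E15.5 (-0.61), and Rrp1b, a nucleolar processing factor, at 76 CPM at E13.5 and 22.7 CPM at E15.5 (-1.40). Nop56, a core protein of the methylation guide particles, stood at 239.6 CPM at E13.5 and 103 CPM at E15.5 (-1.14), while Fbl, the methylase of the same particles, was level at 202 CPM at E13.5 and 203 CPM at E15.5 (0.01).

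Myc, the transcription factor that drives many of these genes, was level in its transcript, at 15.4 CPM at E13.5 and 17 CPM at E15.5 (0.09). Of 10 Myc network genes 1 was past 2-fold higher and 1 lower (median 0.13). The higher 1 was Mxd4, which competes with Myc for its partner, at 22.8 CPM at E13.5 and 84.2 CPM at E15.5 (1.52), and the lower 1 was the family member Mycl, at 19.8 CPM at E13.5 and 2.97 CPM at E15.5 (-1.20). Protein was not measured in these libraries.

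The median of glycolysis genes was below 0 in all 4 choices of cells. Of 17 compared, 5 were past 2-fold lower and 1 higher (median -0.87). Ldha, which turns pyruvate to lactate, stood at 1509 CPM (95% Poisson interval 1489 to 1528) at E13.5 and 635 CPM (626 to 644) at E15.5 (-1.24), and Pkm, the last enzyme of the pathway, at 1409 CPM at E13.5 and 586 CPM at E15.5 (-1.25). Slc16a3, which exports lactate, stood at 23.1 CPM at E13.5 and 2.03 CPM at E15.5 (-1.46). The higher 1 was Ldhb, the lactate dehydrogenase form that favours pyruvate, at 114 CPM at E13.5 and 329.7 CPM at E15.5 (1.46). In low score cells the median was -1.12, with 10 of 18 past 2-fold lower, and in high score cells -0.7, with 2 of 16. Pgk1, another member, stood at 16.3 CPM at E13.5 and 6.26 CPM at E15.5 but at 632 CPM in the E17.5 matrix with the other gene list. Oxidative phosphorylation genes were level by contrast, with 1 of 87 past 2-fold higher and none lower (median 0.05).

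**Figure D5:**
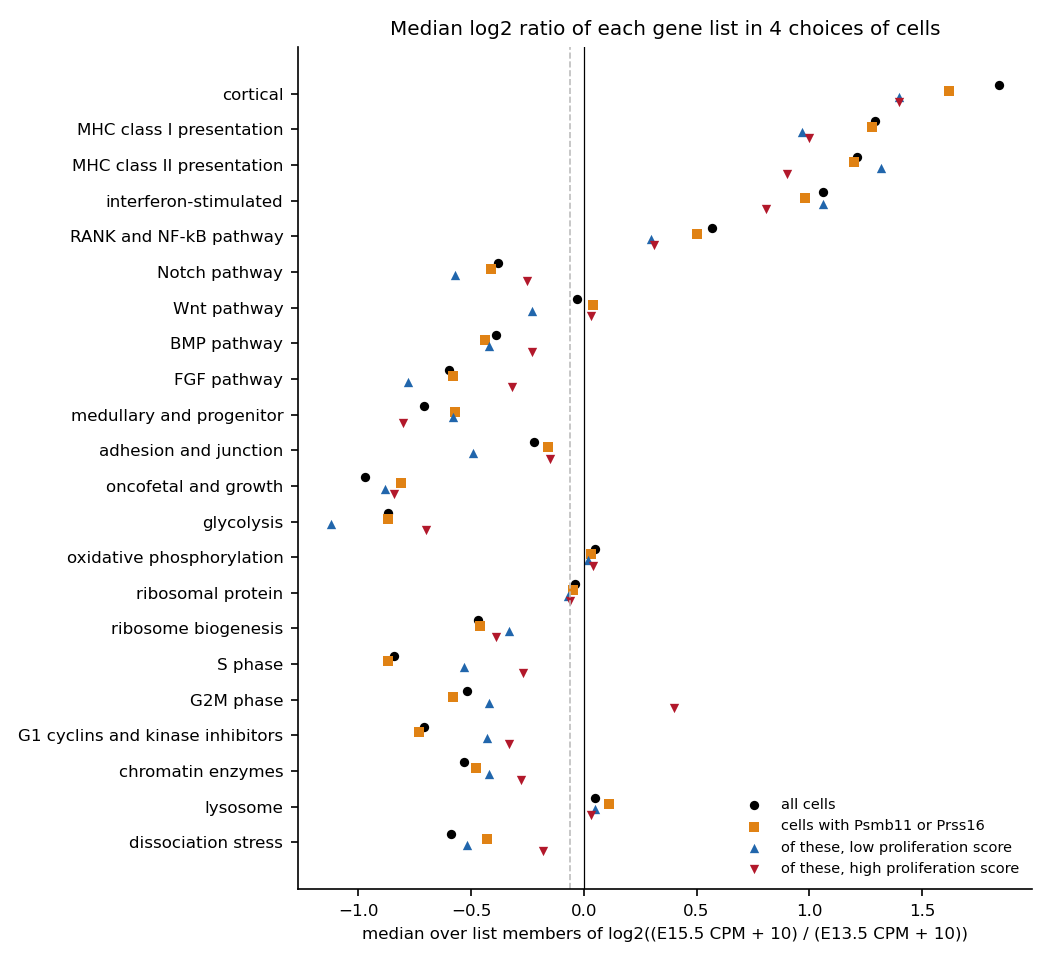
Median log2 ratio of E15.5 over E13.5 (x axis) of 22 gene lists in all cells (black), in cells with Psmb11 or Prss16 (orange), and in those of low (blue) and high (red) proliferation score; the solid line is 0 and the dashed line the median of all genes, -0.06. Cortical, MHC and interferon lists lie right of 0 in all 4, and oncofetal, glycolysis and ribosome biogenesis lists left.

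Signalling pathways of thymus growth were compared next. Of 10 FGF pathway genes 3 were past 2-fold lower (median -0.6), the feedback target Dusp6 at 59 CPM at E13.5 and 19.3 CPM at E15.5 (-1.23) and the transcription factors Etv4 and Etv5 at -1.03 and -1.09. The receptor Fgfr2, which receives mesenchymal FGF in TEC, was at 86.8 CPM at E13.5 and 121 CPM at E15.5 (0.43). Of 11 BMP pathway genes 3 were past 2-fold lower (median -0.39), the target genes Id1, Id2 and Id3, with Id2 at 157 CPM at E13.5 and 17.6 CPM at E15.5 (-2.60), Id1 at -1.39 and Id3 at -1.33. The BMP ligands and receptors compared were under the fold. In low and high score cells 1 of 7 and 1 of 9 FGF genes and 3 of 11 and 1 of 10 BMP genes were past 2-fold lower.

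Of 13 Notch pathway genes 2 were past 2-fold higher and 4 lower (median -0.38). The receptors Notch1 and Notch3 stood at 43.9 CPM at E13.5 and 14.2 CPM at E15.5 (-1.16) and at 23.9 CPM at E13.5 and 4.27 CPM at E15.5 (-1.25). The ligand Jag1 was lower, at -1.31, as was the target Hes1, at 31.6 CPM at E13.5 and 10.8 CPM at E15.5, and Hes6, which counteracts Hes1, was higher at 462 CPM at E13.5 and 1106 CPM at E15.5 (1.24) beside Dll4. In the NF-kB list, which serves medullary development, 2 of 15 were past 2-fold higher, Relb and its partner Nfkb2 at 25.1 CPM at E13.5 and 70.0 CPM at E15.5 (1.19), and none lower (median 0.57). Of 17 Wnt pathway genes 1 was past 2-fold lower, Wnt5a at 15.4 CPM at E13.5 and 1.84 CPM at E15.5 (-1.10), and the median was -0.03. In low score cells 5 of 13 Notch genes were past 2-fold lower and 1 higher (median -0.57), and in high score cells 1 lower and 2 higher (-0.25). With at least 5 UMIs of Psmb11 and Prss16 required, Notch pathway calls came to 1 higher (Dll4) and none lower. Notch1 was then at -0.71, Notch3 at -0.95, Jag1 at -0.86 and Hes1 at -0.93. In the same cells FGF pathway calls came to 2 lower, NF-kB calls to 1 higher and Wnt calls to none.

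Lysosome genes and keratins held calls in both directions. Of 25 lysosome genes 5 were past 2-fold higher and 2 lower (median 0.05), Ctsl among the higher with Scarb2, a lysosomal membrane receptor, at 13.6 CPM at E13.5 and 39.1 CPM at E15.5 (1.06), and the cathepsin Ctsz among the lower at 86.2 CPM at E13.5 and 16.4 CPM at E15.5 (-1.87). With at least 5 UMIs required the lysosome calls were 3 higher and 1 lower. Of 16 basement membrane and integrin genes 1 was past 2-fold higher, the laminin chain Lamb3 at 7.01 CPM at E13.5 and 27.3 CPM at E15.5 (1.13), and none lower (median 0.06). Of 9 keratins 3 were past 2-fold higher and 2 lower. Krt18, the partner of Krt8, stood at 2486 CPM at E13.5 and 7683 CPM at E15.5 (1.62) and Krt7 at 10.5 CPM at E13.5 and 40.0 CPM at E15.5 (1.29), while Krt19 stood at 81.8 CPM at E13.5 and 13.7 CPM at E15.5 (-1.95) and the other lower keratin was Krt5. In low score cells the balance turned, with 1 of 10 keratins past 2-fold higher and 4 lower (median -0.21, beside 0.25 in all cells), and Krt8 and Krt18 were under the fold, at 0.51 and 0.58.

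Some further lists bear on technique. Of 19 genes of the dissociation stress list 2 were past 2-fold lower and none higher (median -0.59). They were Fos, an immediate early gene, at 75.5 CPM at E13.5 and 23.3 CPM at E15.5 (-1.36), and Hspb1, a small heat shock protein, at 157 CPM at E13.5 and 22.2 CPM at E15.5 (-2.38); only Hspb1 was past 2-fold with at least 5 UMIs required, and the part of handling in these was not tested. Hbb-y, an embryonic globin, gave 423 UMIs at E13.5 and 1 at E15.5, and stood at 28.03 CPM in E13.5 cells with Psmb11 or Prss16 and 27.7 CPM in those without. Xist, the RNA of the inactive X chromosome, stood at 1374 CPM at E13.5 and 606 CPM at E15.5 (-1.17) and the Y-linked Ddx3y at 21.1 CPM at E13.5 and 32.9 CPM at E15.5 (0.46). The sexes of the embryos in each library are not given in the sources used here.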

How the data were processed

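The authors sorted TEC, prepared 10x Chromium version 2 libraries and deposited raw UMI counts per gene and barcode, without normalization. The submitters' processing notes name bcl2fastq 2.17, STAR 2.5.1b and Cell Ranger 2.0.1 with mm10. Both libraries held 1 sample, and all comparisons are descriptive. Cells over 5% mitochondrial UMIs or 5000 genes were left out, and no doublet caller was run. Counts were summed over cells and scaled to total UMIs. Genes with at least 10 CPM in either library were compared by the log2 ratio of CPM + 10, and an absolute value of 1 was called past 2-fold. Ribosomal protein genes were matched by symbol. Poisson and binomial intervals (95%, exact) cover counting error only. Proliferation scores used scanpy 1.11.5 (25 bins, 50 control genes), with numpy 2.4.6, scipy 1.17.1 and pandas 2.3.3 in Python 3.11.15. The log2 ratio was tested on simulated Poisson counts of whole libraries. The choices of cells, scores, thinning and motif searches were not tested in this way. Gene coordinates are GENCODE vM21 and promoters RefSeq, both of GRCm38, the build of mm10, and 6747 of the 8748 compared genes left with 1 row kept per symbol matched a promoter. Named genes were members of 40 gene lists, the 15 with the largest ratio in each direction in all cells and the 10 in low score cells, leaving out mitochondrial, haemoglobin and ribosomal protein genes and unnamed gene models. The members and lists were chosen with earlier results of these data known. Alternatives tried were another pseudocount, filter, scaling and total, all deposited cells, means over cells, cells without other markers, and other limits on the cells and scores. The E17.5 cTEC matrix uses another gene list, and its header names a Cell Ranger version other than that of the processing notes. It was read only to find compared genes whose level there lay over 10 times outside the others. The NB cTEC levels are of 1 library.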

Additional observations from a re-analysis of the deposited data

How the results depend on the processing

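With a pseudocount of 1 CPM in place of 10, the number of genes past 2-fold was larger, 1249 in all cells (606 higher, 643 lower), 1116 in cells with Psmb11 or Prss16 (556 and 560), 1103 in low score cells (482 and 621) and 733 in high score cells (390 and 343), and all 653 genes of all cells kept their direction past 2-fold. Of those 653, 584 remained past 2-fold with median-ratio scaling, which moved the median of all genes from -0.06 to 0.06, 598 without cells with other markers, 635 with means over cells, 646 with all deposited cells and 652 with a total without ribosomal protein and cell cycle genes. Rnase4, chosen after its values were seen, was the 1 gene whose sign turned, from -1.28 to 0.17 without cells with other markers. Thinning moved the share of cells with Psmb11 or Prss16 to 56.07% and 97.1%, and a score above 0.1 moved the share of high score cells to 63.4% and 24.14%. The ribosomal protein share was 25.46% at E13.5 in cells with Psmb11 or Prss16 and 24.31% at E15.5 in all deposited cells. List medians turned for keratins without a filter (-0.01 in all cells and -0.01 in cells with Psmb11 or Prss16) and, with at least 5 UMIs of these genes, for the medullary and progenitor list (0.66) and the adhesion and junction list (0.01). Of the other list medians 352 moved by more than the counting interval of the list's summed UMIs and 172 did not. No paired analysis was possible because each side had 1 library. With 1 library a side, no alternative shows how far embryos or captures differ. At median depths of 7035 and 7382 UMIs a cell, genes under 10 CPM, such as Psmb8 and Lin28b, were not compared.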
